A study of Mus musculus with 6 samples.

Results

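The mitochondrial solute carriers of the SLC25 family were followed in sorted cones of the rd1TN-XL mouse. The members were all rows of the count table whose symbol is Slc25a followed by a number, and 48 of 46078 rows matched, with 47 distinct symbols, since Slc25a32 is listed under 2 gene identifiers. Every animal behind the 6 libraries was rd1TN-XL, from a cross of C57BL/6J with C3H HR2.1:TN-XL x rd1 mice, so the controls carry both the rd1 defect of the rod gene Pde6b and the calcium sensor TN-XL. The sensor is driven by HR2.1, a promoter of the human red opsin gene, and its fluorescence was used to sort the cells. The paper describes the sensor as limited to M- and L-cones, and also reports that it overlapped fully with the cone protein cone arrestin. Retinal explants with the retinal pigment epithelium were taken at PN19 and cultured for 7 days with 10 nM trichostatin A (TSA), an inhibitor of histone deacetylases, or with the same amount of DMSO as the control. Each group has 3 libraries, each made from a part of the lysate of 2000 to 5000 sorted cells. These came from at least 2 explants from different animals. The titles give a harvest at PN26 for all libraries, whereas the time point label gives PN26 to PN28 for the controls and PN29 to PN31 for TSA. Where that label is right, age and treatment cannot be told apart.

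SLC25 carriers are small membrane proteins that move metabolites across the inner mitochondrial membrane, with a few members in other membranes such as that of the peroxisome. ADP/ATP translocases exchange the ATP made in the matrix for cytosolic ADP, and the phosphate carrier brings in the phosphate that ATP synthase uses. Other members carry the substrates of the malate-aspartate shuttle, amino acids, fatty acids bound to carnitine, nucleotides, vitamins and iron. Photoreceptors pack many mitochondria into the inner segment, and the aspartate/glutamate carrier of the shuttle responds to calcium outside the mitochondrion.

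The libraries held 9135389 to 13650676 counts on genes. Cone markers took 3.14% to 5.29% of the counts in controls and 2.97% to 4.99% in TSA-treated cones, and rod markers took 1.62% to 2.36% and 1.14% to 1.72%. TSA replicate 1 had the highest shares of Müller glia and microglia markers. Müller glia markers took 1.26% of its counts, against 0.0825% to 0.214% in the other 5 libraries, and 8 of 10 such markers were highest there. Microglia markers took 0.161%, against at most 0.0180% elsewhere, and 9 of 10 were highest there. The microglia marker C1qb, however, was at 0 in every control and at 6464, 1393 and 911 counts with TSA, while the other 9 microglia markers had at most 2 counts in TSA replicates 2 and 3.

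The pair of ADP/ATP translocases that led the family are close in sequence, which bears on how well single reads of 75 bases tell them apart. Their coding sequences are 897 bases long in both genes and differ at 202 bases (77.5% identity), with no identical run longer than 20 bases. Of the 75-base coding windows, 601 lie within 1 exon of both genes, and those across exon junctions were not compared. The stretch shown for each gene is the window of these 601 with the fewest differences, 11. It lies in exon 2 at coding bases 220 to 294. It maps to chr8:46209326-46209400 on the minus strand for Slc25a4 and to chrX:36796951-36797025 on the plus strand for Slc25a5 (GRCm38, GENCODE M21), and capitals mark the bases that differ.
Slc25a4: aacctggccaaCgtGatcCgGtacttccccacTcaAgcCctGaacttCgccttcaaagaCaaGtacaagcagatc
Slc25a5: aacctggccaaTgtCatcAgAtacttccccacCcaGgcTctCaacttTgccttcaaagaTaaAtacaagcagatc
A read of full length from such a window therefore separates both genes at 11 bases or more. Of all 75-base windows of the Slc25a4 transcripts, 0% also occurred in transcripts of another gene, while 19.8% of the 1644 windows of Slc25a5 did, including those of its processed pseudogenes. The row of the pseudogene Slc25a5-ps held 14 to 53 counts per library, 0.221% to 0.393% of the Slc25a5 counts. How reads with several matches were counted is not given in the sources used here.

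The family as a whole took 0.398%, 0.305% and 0.312% of all counts in the controls and 0.492%, 0.477% and 0.396% with TSA, where values of single libraries are listed in the order of replicates 1, 2 and 3 throughout. The 95% Wilson intervals of single libraries are narrow, 0.301% to 0.308% in the shallowest, and cover counting error only. Control replicate 1 and TSA replicate 3 met, so the groups overlapped, with means of 0.338% ± 0.0521 and 0.455% ± 0.0519 (SD, n = 3 each). Slc25a4, Slc25a5 and Slc25a3 together made up 64.3% to 84.4% of the counts on members. Since these are bulk libraries, fewer cells that express a carrier and less of its RNA per cell cannot be told apart, here or below.

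Most members were scarce or patchy. At 10 counts or more, 16, 21 and 11 members were found in the controls and 23, 23 and 17 with TSA, and the numbers were the same after thinning every library to the lowest total. The groups overlapped here too (16 ± 5 and 21 ± 3.46, SD, n = 3 each). Only 8 members held 10 counts or more in every library: Slc25a4, Slc25a5, Slc25a3, Slc25a33, Slc25a17, Slc25a39, Slc25a22 and Slc25a46. In contrast, 18 members never passed 9 counts and 3 rows were at 0 throughout, namely Slc25a34, the ornithine carrier gene Slc25a2 and the second Slc25a32 identifier. Genes of every kind with 10 counts or more numbered 6936 to 8837 in controls and 7230 to 11086 in TSA-treated cones, and the part of this in the detection of members was not tested.

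**Figure D1:**
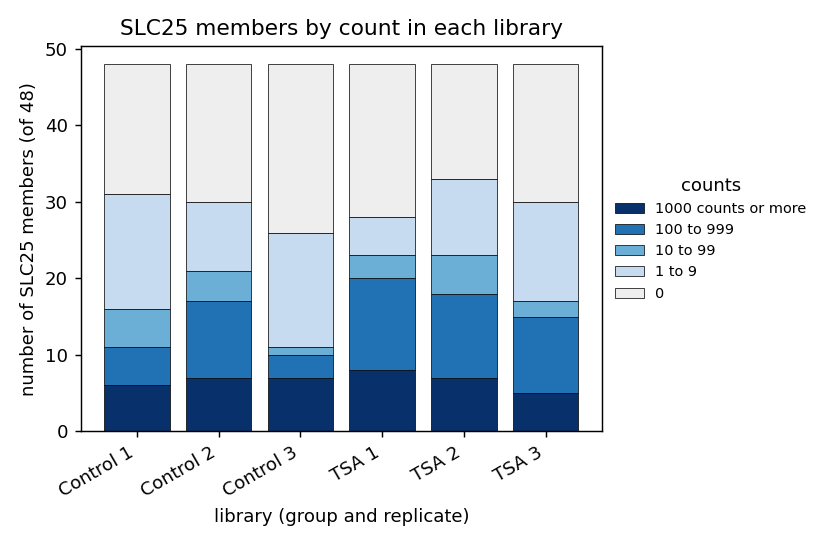
Number of SLC25 members (y axis, of 48) in each of the 6 libraries (x axis), stacked by their count in that library. Control replicate 3 had the fewest members at 10 counts or more, 11, and TSA replicates 1 and 2 the most, 23 each.

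For the comparison of treatments, genes needed more than 1 CPM (counts per 1000000) in at least 2 libraries of a group, which 20 of 48 members passed (41.7%, against 20.9% of all genes). The other 28 were not tested, and since a member can pass through the group where it is high, the 20 do not stand for the family. By the quasi-likelihood test of edgeR with Benjamini-Hochberg adjustment over all 9621 genes, no member passed an adjusted p of 0.05 in either direction (0 higher and 0 lower), nor did any gene (0% of all genes each way, lowest adjusted p 0.405). At an unadjusted p of 0.05 or less, 1 member was higher in TSA-treated cones, Slc25a51, and 0 were lower, beside 8.02% and 2.30% of all genes tested. Fold changes were above 0 for 12 members and below 0 for 8, with a median of 0.24 on the log2 scale against 0.025 over all genes. The median standard error of the members was 1.98 on the same scale. The groups did not overlap for 3 members that were higher with TSA and for 0 that were lower, beside 6.37% and 3.71% of all genes tested. Those 3 were Slc25a16, Slc25a17 and Slc25a51. With any 1 library left out, the higher count was 4 to 6 and the lower count 0 to 2, beside 10.9% to 16.5% and 7.21% to 10.9% of all genes in these smaller comparisons.

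**Figure D2:**
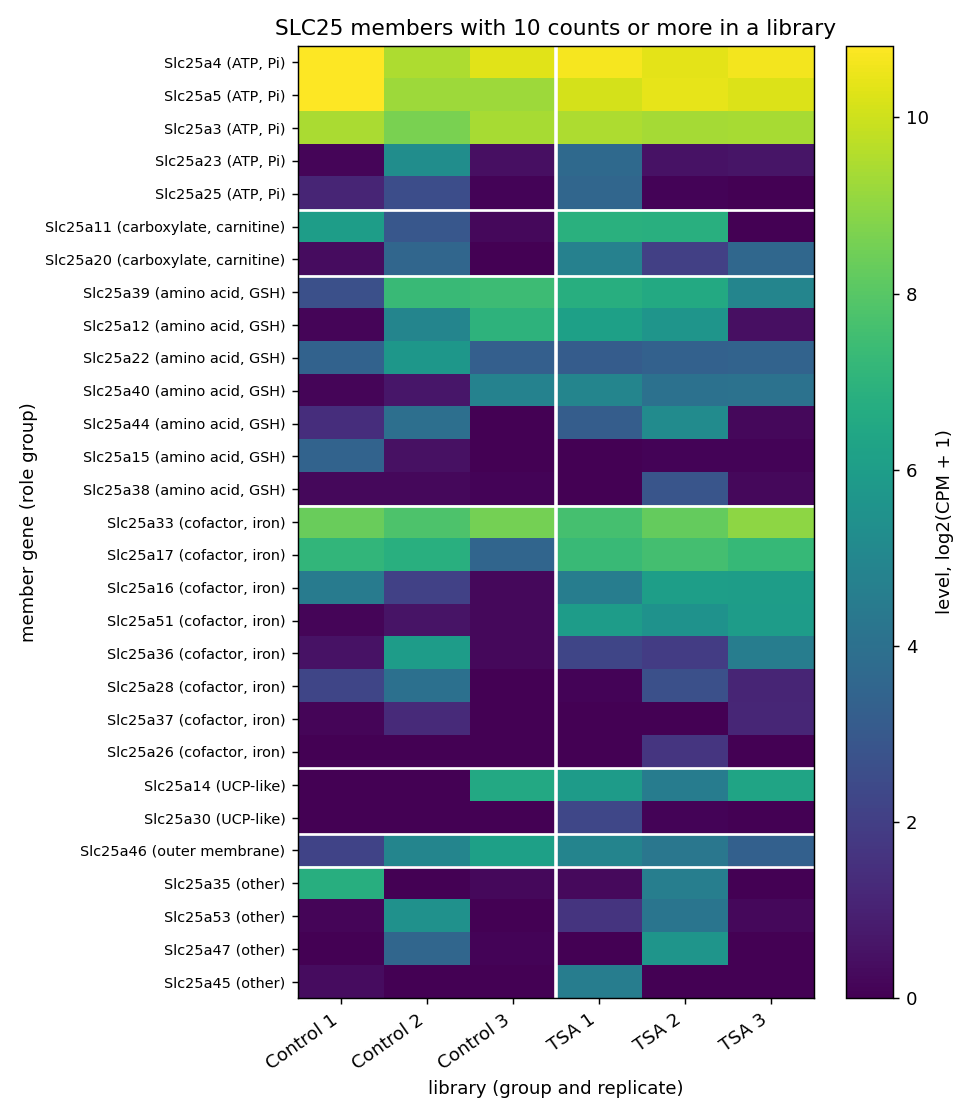
Levels of 29 members with 10 counts or more in at least 1 library, as log2(CPM + 1) by colour, with members in rows grouped by role and the 6 libraries in columns. Slc25a4, Slc25a5, Slc25a3 and Slc25a33 were bright in every column, while most other rows had at least 1 dark column.

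Among carriers of adenine nucleotides and phosphate, 3 of 8 members were tested and all 3 were high in every library. Slc25a4 encodes ADP/ATP translocase 1 (ANT1, chr8:46206797-46211284) and held 19445, 7449 and 14244 counts in controls and 23127, 17436 and 17624 with TSA. Its level was 1260 ± 544 CPM in controls and 1518 ± 158 CPM in TSA-treated cones (SD, n = 3 each), with the TSA libraries inside the range of the controls. The log2 fold change was 0.27 with a standard error of 0.40. Slc25a5 encodes ADP/ATP translocase 2 (ANT2, chrX:36795651-36798807), the form known from dividing cells. Its counts were 19015, 6214 and 6655 in controls and 15537, 17557 and 13501 with TSA. Control replicate 1 was the highest library and the other controls the lowest, so the groups overlapped, and the log2 fold change was 0.31 with a standard error of 0.50. Slc25a3, the phosphate carrier (chr10:91116574-91124059), was the steadiest of the 3, with 7406, 4233 and 7581 counts in controls and 10068, 8601 and 7574 with TSA. Its highest CPM was 1.76 times its lowest, and the log2 fold change was 0.22 with a standard error of 0.40. Control replicate 2 was the lowest library for all 3 genes, and without it the fold changes of Slc25a4 and Slc25a3 turned to -0.052 and -0.031, while that of Slc25a5 turned to -0.047 without control replicate 3.

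Scaled by transcript length, Slc25a5 was the highest member with a mean of 887 CPM per kb, followed by Slc25a4 with 722 CPM per kb. Their order was not stable, since the ratio of Slc25a4 to Slc25a5 per kb was 0.659, 0.772 and 1.38 in controls and 0.959, 0.640 and 0.841 with TSA. Only control replicate 3 had more Slc25a4 than Slc25a5 per kb, and the groups overlapped. Slc25a3 came next with a mean of 395 CPM per kb and was below both translocases in every library.

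The remaining carriers of adenine nucleotides were scarce. The testis translocase Slc25a31 had 1 count in all. The ATP-Mg/phosphate carriers, most of which respond to calcium through their own binding domain, did not pass the filter. Slc25a23 had 404 counts in control replicate 2 and 171 in TSA replicate 1 but at most 6 elsewhere, and the highest count of Slc25a25 was 156, in TSA replicate 1, with at most 51 elsewhere. Slc25a24 and Slc25a41 had 1 and 2 counts over all libraries.

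**Figure D3:**
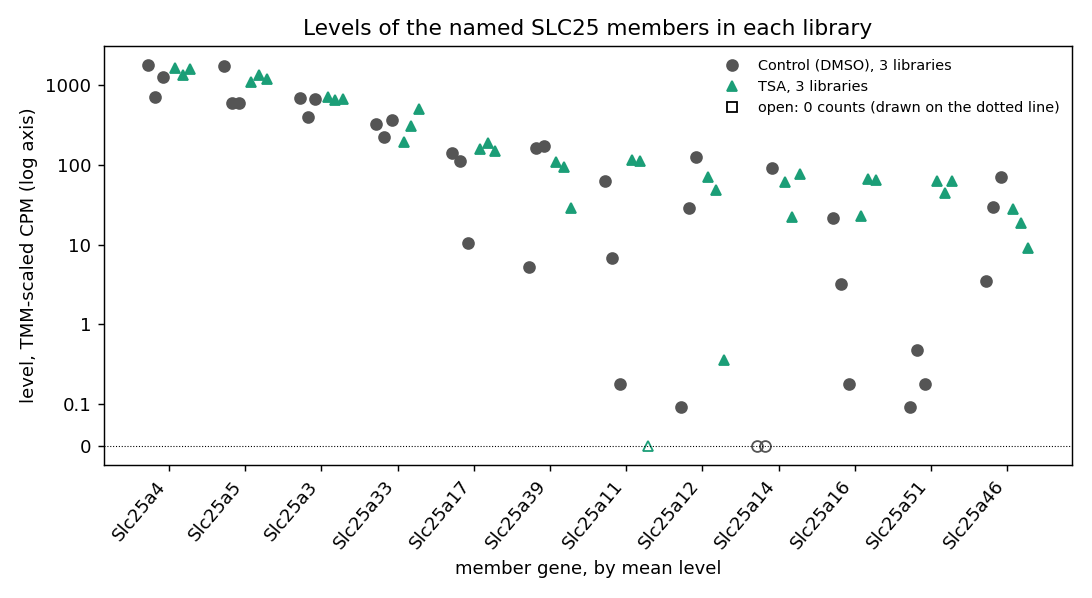
Level in CPM (log axis) of 12 tested members chosen by the rule stated in the processing section, in order of mean level along the x axis. Circles stand for the 3 control and triangles for the 3 TSA libraries, with open symbols for 0 counts. Slc25a51 has all 3 controls under 0.5 CPM and all 3 TSA libraries between 44.9 and 62.7 CPM, and the 4 leading members vary far less between libraries than those to their right.

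The cofactor, nucleotide and iron carriers held the largest fold change among the 20 tested members. Slc25a51, the carrier that brings NAD into mitochondria (chr4:45395923-45408766, minus strand), had 1, 5 and 2 counts in controls and 889, 586 and 690 counts with TSA. All TSA libraries were thus far above all controls, at 56.6 ± 10.1 CPM against 0.249 ± 0.201 CPM (SD, n = 3 each). The pooled counts of 2165 and 8 per scaled total gave a ratio of 229, with an exact 95% interval of 116 to 532 for counting error only. In edgeR the log2 fold change was 7.77 with a standard error of 1.85, an unadjusted p of 0.00327 and, by Benjamini-Hochberg over all genes, an adjusted p of 0.405, so it was not called. The unadjusted p stayed at 0.05 or less in all 13 alternative fits, whereas the adjusted p ran from 4.11e-10 in DESeq2, the only fit that called it, to 0.759 in edgeR with a replicate block. Over the edgeR fits that left out 1 library, the log2 fold change was 7.30 to 8.56. All 3 controls were under 1 CPM, so Slc25a51 entered the test through the TSA libraries alone, and its p in fits with that filter is no independent support. Müller glia markers took 0.117% to 0.214% of counts in controls and 1.26%, 0.159% and 0.0825% with TSA. In every library Car2 and Apoe held the most of these counts, so the share mainly follows these genes. Car2 had 9801, 6039 and 22293 counts in controls and 22666, 15094 and 6029 with TSA. The mean level was higher with TSA for 8 of the 10 markers. Of these markers, 8 of 10 were highest in TSA replicate 1, and 0 of the 8 tested had groups without overlap. Microglia markers took at most 0.0180% in controls and 0.161%, 0.0116% and 0.00716% with TSA. Among them only C1qb, like Slc25a51, had groups that did not overlap. The part of these cells in the values of Slc25a51 was not tested. Windows that also occurred in another gene made up 0.933% of its transcripts.

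Slc25a16, a carrier linked to coenzyme A (chr10:62920633-62946498), had 235, 34 and 2 counts in controls and 327, 863 and 714 in TSA-treated cones. The groups did not overlap but came close, since the highest control lay at 21.7 CPM and the lowest TSA library at 23.1 CPM. Its log2 fold change was 2.61 with a standard error of 1.86 (unadjusted p 0.201 and adjusted p 0.984 by edgeR), and it was 4.76 without control replicate 1. Slc25a17, which carries coenzyme A and nucleotides across the peroxisomal membrane (chr15:81318911-81360812), had 1509, 1162 and 117 counts in controls and 2234, 2477 and 1669 with TSA. All TSA libraries were above all controls in CPM, with 1 control far below the rest. The log2 fold change of Slc25a17 was 0.93 with a standard error of 1.00, and it was 0.30 without control replicate 3, the low one. Slc25a42, the other carrier of coenzyme A, had 4 counts in all.

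Of the pyrimidine nucleotide carriers, Slc25a33 (chr4:149744036-149774277) was the fourth member in mean CPM per kb (170 CPM per kb), with 3530, 2353 and 4129 counts in controls and 2759, 3992 and 5661 with TSA. The groups overlapped and the log2 fold change was 0.13 with a standard error of 0.56. It turned to -0.086 without control replicate 2 and to -0.33 without TSA replicate 3. Of its transcript windows, 11.4% also occurred in another gene, and the annotated antisense gene Gm13068 covers 14.9% of its exon bases. Strand use in counting is not given in the sources used here, so reads of both cannot be told apart. Its relative Slc25a36 was uneven, with 644 counts in control replicate 2, 256 in TSA replicate 3 and 2 to 54 elsewhere.

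The iron carriers known as mitoferrins were low, with at most 158 counts for Slc25a28 and at most 15 for Slc25a37 in any library. Slc25a26, which carries S-adenosylmethionine, had 29 counts, all in TSA replicate 2. The annotated row of Slc25a32, a folate and FAD carrier, had at most 1 count per library.

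Among carboxylate and fatty acid carriers, 2 of 5 members were tested. Slc25a11, the 2-oxoglutarate/malate carrier of the malate-aspartate shuttle (chr11:70644196-70647479), had 687, 71 and 2 counts in controls and 1623, 1481 and 0 with TSA. The highest and the lowest libraries were both from TSA-treated cones. The log2 fold change was 1.70 with a standard error of 2.48, and it was 4.31 without control replicate 1. Slc25a20, which carries acylcarnitines, had 3, 116 and 0 counts in controls and 364, 41 and 125 with TSA, with overlap between the groups. The citrate carrier Slc25a1, the dicarboxylate carrier Slc25a10 and the oxodicarboxylate carrier Slc25a21 had 7, 1 and 3 counts over all libraries.

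Among carriers of amino acids and glutathione, 5 of 11 members were tested. Slc25a39, which brings glutathione into mitochondria (chr11:102402985-102407946), led them with 56, 1699 and 1906 counts in controls and 1525, 1224 and 324 with TSA. Control replicate 1 was the lowest library and the other controls the highest, and the log2 fold change was -0.55 with a standard error of 1.28. It was -1.17 without control replicate 1 and -0.19 without TSA replicate 3. Its close relative Slc25a40 had 1, 6 and 294 counts in controls and 420, 199 and 179 with TSA, and these groups overlapped through control replicate 3. Slc25a12 (aralar, chr2:71271063-71367749), the aspartate/glutamate carrier that calcium activates, had 1, 305 and 1410 counts in controls and 1000, 635 and 4 with TSA. Each group thus ran from near 0 to 1000 counts or more, the log2 fold change was -0.38 with a standard error of 2.18, and it turned to 1.32 without control replicate 3 and to 0.23 without TSA replicate 3. The second calcium-regulated form, Slc25a13 (citrin), had 1 count in all. The glutamate carrier Slc25a22 was at 97 to 121 counts in 5 libraries and at 545 in control replicate 2, whereas its relative Slc25a18 had 2 counts in all. Slc25a44, a carrier of branched-chain amino acids, ranged from 0 to 472 counts. The untested members of this group were Slc25a15, an ornithine carrier with 107 of its 113 counts in control replicate 1, Slc25a38, a glycine carrier with 80 of 87 counts in TSA replicate 2, Slc25a29 with 6 counts, and Slc25a2, Slc25a13 and Slc25a18.

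Of the members that resemble uncoupling proteins, only Slc25a14 (UCP5, chrX:48623413-48662294) was tested. It had 0, 0 and 1031 counts in controls and 858, 293 and 862 with TSA, so it was present in all TSA libraries and in 1 control, which was the highest of all in CPM. The log2 fold change was 0.80 with a standard error of 2.60, and it was 12.29 without control replicate 3, a value that depends on the prior count since the other controls are at 0. Slc25a27 (UCP4) had 0 counts in every control and 4, 1 and 3 with TSA, and of the 56 counts of Slc25a30, 55 were in TSA replicate 1. Slc25a46 (chr18:31556111-31609911), an outer membrane member involved in mitochondrial shape, had 38, 307 and 787 counts in controls and 400, 244 and 101 with TSA. The TSA libraries lay within the range of the controls, and its log2 fold change of -0.88 with a standard error of 1.57 turned to 0.060 without control replicate 3.

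For the remaining 8 members no role is given here, and 1 of them, Slc25a53, was tested, with 457 counts in control replicate 2, 224 in TSA replicate 2 and at most 29 elsewhere. Slc25a35 (chr11:68968131-68974365) was the highest of the 8, with 1168, 0 and 2 counts in controls and 3, 309 and 0 with TSA, so that 1 library of each group carried nearly all of it. The gene Rangrf on the opposite strand overlaps 31.3% of its exon bases, and reads of both cannot be told apart without strand. Slc25a47 had 113 counts in control replicate 2 and 645 in TSA replicate 2 and at most 1 elsewhere. Slc25a45 had 326 counts in TSA replicate 1 and 3, 0 and 0 in the controls, with 0 in TSA replicates 2 and 3. It was seen, like Slc25a30, almost only in the library with the most Müller glia and microglia markers, and the part of these cells in it was not tested.

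**Figure D4:**
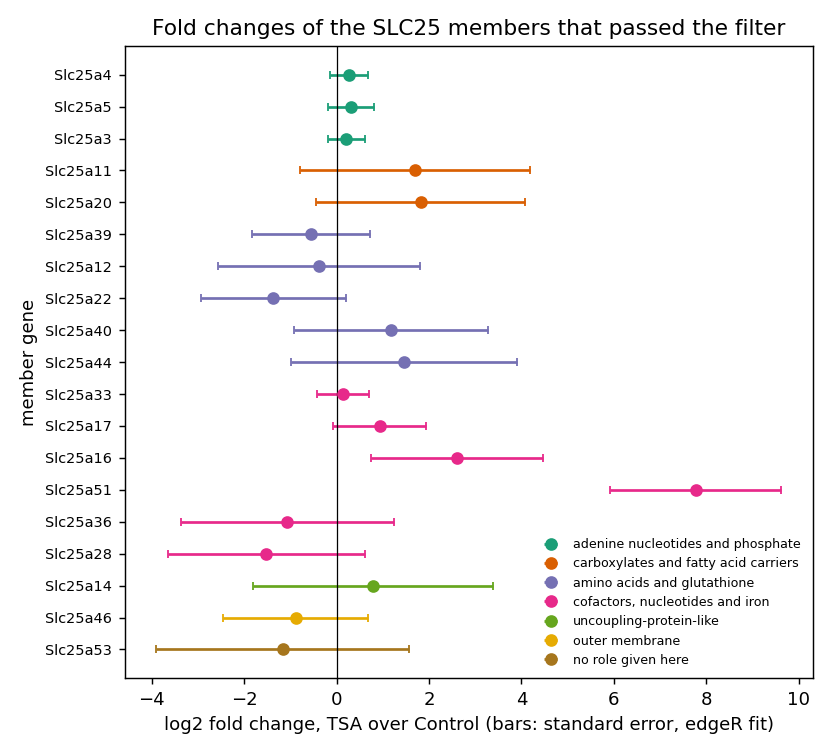
Log2 fold change of TSA over control (x axis, edgeR fit) for 19 of the members that passed the filter, coloured by role, with bars for the standard error. Slc25a51 stands at 7.77 and the 3 adenine nucleotide and phosphate carriers between 0.22 and 0.31 with the shortest bars, which span 0 as do those of most other members.

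Tested members over 100 CPM were measured more evenly than those below, as were genes in general. Among tested members with a mean over 100 CPM, 0 of 5 had a library at 3 counts or less, beside 9.93% of all such genes. Between 10 and 100 CPM this held for 10 of 13 members, beside 66.4% of all such genes, and under 10 CPM for 2 of 2, beside 68.8%. Over all levels it was 12 of 20 members (60%), beside 57.2% of all genes tested.

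Other genes of mitochondrial transport were read from lists of 51 genes, of which 37 were tested. By edgeR with Benjamini-Hochberg adjustment 0 passed an adjusted p of 0.05. At an unadjusted p of 0.05 or less 2 were higher with TSA and 0 lower, beside 8.02% and 2.30% of all genes tested. The median log2 fold change of the 37 was 0.13, with 23 above 0 and 14 below. None of the 37 had groups without overlap, beside 6.37% higher and 3.71% lower of all genes tested. The 2 at an unadjusted p of 0.05 or less were Abcb8 and Agk. Abcb8, an ABC transporter of the inner membrane, had 2, 2 and 0 counts in controls and 88, 170 and 2 with TSA (log2 fold change 5.59, standard error 1.99). Agk, a kinase that is also part of the TIM22 complex, had 0, 3 and 1 counts in controls and 525, 87 and 0 with TSA (6.75, standard error 2.92). All their controls were under 1 CPM, so both entered the test through TSA libraries alone, and both were at 2 counts or less in TSA replicate 3.

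Of the machinery of carrier import, 12 of 13 genes were tested, and 4 of the 12 had a library at 3 counts or less. Its highest gene per length was Timm8b, a small chaperone of the intermembrane space, with 25263, 18890 and 23364 counts in controls and 16582, 18737 and 22231 with TSA. Its log2 fold change was -0.43 with a standard error of 0.33, and the groups overlapped. The 2 pyruvate carrier genes Mpc1 and Mpc2 and the 3 porins Vdac1 to Vdac3, the pores of the outer membrane, were at 594 counts or more in every library. Per length, Mpc2 led the former with 4095 to 12505 counts and Vdac3 the latter with 3304 to 7534 counts. Among enzymes of the shuttles, Mdh1, the cytosolic malate dehydrogenase that works with Slc25a11, had 49622, 17093 and 44237 counts in controls and 47706, 49889 and 34782 with TSA. Its mean of 1609 CPM per kb stood beside 29.1 CPM per kb for Slc25a11 and 7.22 CPM per kb for Slc25a12. Smdt1, the regulator EMRE of the mitochondrial calcium uniporter, had 3790 to 18510 counts, while the pore gene Mcu had 0 to 416. Of the SLC25-fold genes with other names, Mtch2, an insertase of the outer membrane, was highest per length with 2615 to 7629 counts. The uncoupling proteins Ucp1 and Ucp3 never passed 4 counts, while Ucp2 had 82 counts in control replicate 1 and at most 4 elsewhere. The sideroflexins were led per length by Sfxn4 with 0 to 1500 counts.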

How the data were processed

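RNA-seq was performed with the SMART-Seq v4 kit (17 cycles of cDNA and 11 of library PCR, no molecular identifiers, single reads of 75 bases) on 3 control and 3 TSA libraries, grouped by the titles. The authors aligned to GRCm38 with STAR 2.5.4a and counted per gene with Subread 1.6.0, and deposited the raw counts of 46078 genes. The other deposited table, which holds the authors' own differences, test statistics and p-values, was not used.

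Genes over 1 CPM in at least 2 libraries of a group, as the filter is worded in the methods, were kept (9621, fewer than the 14407 that the authors' own table lists) and compared over all 6 libraries in edgeR 4.0.16 under R 4.3.3 (glmQLFTest, two-sided, TMM, prior count 0.125, no covariates). P-values were adjusted by Benjamini-Hochberg over the genes kept. Standard errors are the size of the log2 fold change divided by the square root of F. CPM of single genes use the TMM-adjusted total of the kept genes. TMM moved the median of all genes by -0.12 on the log2 scale against total scaling. CPM per kb uses the longest protein-coding transcript of GENCODE M21 (GRCm38), which also gave positions, overlaps and the printed windows, and read sharing was searched over its transcripts. Totals of 9135389 to 13650676 counts put 3 counts at 0.220 to 0.328 CPM. Without molecular identifiers PCR copies count as molecules, so intervals cover only counting error.

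The naming rule chose the 12 members of highest mean CPM and the highest of each role group. It also chose those at an unadjusted p of 0.05 or less. Members whose groups did not overlap were chosen at 5 CPM or more in the higher group. Single-library members needed 10 CPM or more in 1 library and at most 10 counts in each other library. Those reported are given with a value in every library, and the other members by counts or ranges. Some items that the rule chose are not reported here, though the counts over members and lists include them. Of the other transport lists, the highest genes per list and those at an unadjusted p of 0.05 or less are named. A few more (Mpc1, Vdac1 to Vdac3, Mcu and Ucp1 to Ucp3) were chosen after their values were seen. The members and lists were chosen with earlier results of these data known.

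Alternatives were RLE and total scaling, no filter, filterByExpr, DESeq2 1.42.0, limma-voom 3.58.1 with quality weights, a replicate block and leaving out each library in turn, filtering anew. The procedure was tested on simulated data, where the pass mark was set at a far lower dispersion than the common dispersion of 2.16 fitted here. That check does not show how many true changes the fit finds at the spread of these data.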

Additional observations from a re-analysis of the deposited data

How the results depend on the processing

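No alternative changed the side of the threshold for lower members, and DESeq2 alone called a member, Slc25a51, higher (1 member, log2 fold change 7.74, adjusted p 4.11e-10), where it called 656 genes higher and 200 lower over all genes. limma-voom with quality weights called 32 and 5 genes and edgeR without a filter 9 and 2, in neither case a member. Without the filter, the unadjusted p was 0.05 or less for 5 higher and 2 lower of 45 members (5.79% and 3.56% of all genes in that fit), where members with few counts were tested too. Of 169 alternative fold changes of the 13 tested members that the naming rule chose, 156 kept their direction and 13 reversed. With limma-voom, those of Slc25a33, Slc25a39, Slc25a12 and Slc25a46 were -0.25, 0.99, 2.501 and 0.24. The cause of these reversals was not tested.

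The control and TSA libraries of the same number did not deviate together (correlations of -0.01, 0.07 and 0.03), so the numbers were not taken as pairs. With a replicate block, 1 higher and 0 lower members had an unadjusted p of 0.05 or less, beside 5.30% and 1.14% of all genes. In that fit 0 members were called, as over all genes, and the block turned Slc25a12 to 0.74. It gave a median log2 fold change of 0.84 for the members and 0.32 for all genes, and limma-voom 1.63 and 0.58.

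With each library left out in turn, members higher at an unadjusted p of 0.05 or less numbered 1 to 4, always with Slc25a51, beside 3.91% to 8.38% of all genes. The count was 2 without control replicate 1, where Slc25a5 joined at a log2 fold change of 0.98. It was 4 without control replicate 2, where Slc25a53, Slc25a36 and Slc25a20 joined, and 3 without control replicate 3, where Slc25a14 and Slc25a40 joined. Members whose groups did not overlap numbered 4 to 6 higher and 0 to 2 lower (10.9% to 16.5% and 7.21% to 10.9% of all genes), a count added after seeing the data. Log2 fold changes ranged from -0.052 to 0.58 for Slc25a4, -0.047 to 0.98 for Slc25a5, -0.031 to 0.30 for Slc25a3, -0.33 to 0.47 for Slc25a33, -0.97 to 1.32 for Slc25a12, -1.17 to -0.19 for Slc25a39 and -1.44 to 0.060 for Slc25a46. Slc25a33 was at -0.086 without control replicate 2, and Slc25a12 at 0.23 without TSA replicate 3. The median of members ranged from 0.17 to 0.46.

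With at least 1 count as the minimum, 29 members per control library and 30.3 per TSA library were found in place of 16 and 21.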
